A study of Mus musculus with 3 samples.

Results

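The nuclear genes of the mitochondrial respiratory chain were examined in endothelial cells sorted from the embryonic mouse kidney. The members were all probe sets whose platform annotation gave a single gene symbol beginning with Ndufa, Ndufb, Ndufc, Ndufs, Ndufv, Uqcr, Cox4 to Cox8 or Atp5, or equal to Sdha, Sdhb, Sdhc, Sdhd, Cyc1 or Cycs. This gave 118 probe sets for 91 genes, of 35557 probe sets on the arrays, 21789 of them with a single symbol for 19938 genes in all. No measured value entered the choice. Genes with such names but no probe set of a single symbol were not analysed here.

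Cells were taken from CD-1 mice that carry the Tg(TIE2GFP)287Sato transgene, in which the promoter of Tek, the angiopoietin receptor Tie2, drives green fluorescent protein. Tek is also known in some cells of the blood lineage, so a gate on GFP alone need not hold endothelial cells only. Embryos were at 15.5 dpc (Theiler stage 23), the kidneys were dissociated with trypsin, and GFP-positive cells were collected by FACS. Each of the 3 arrays, numbered 1 to 3, held RNA of a pool of 4 to 5 kidneys after 1 round of WT-Ovation Pico amplification, and all arrays belonged to 1 group, with no second condition to compare. Whether these pools are of different litters is not in the labels, and p-values cover no more than the spread between the arrays.

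The respiratory chain lies in the inner mitochondrial membrane. Complexes I and II pass electrons from NADH and succinate to coenzyme Q, complex III passes them on to cytochrome c, and complex IV hands them to oxygen, while complex V, the ATP synthase, makes ATP from the proton gradient that complexes I, III and IV build. Most subunits are encoded in the nucleus and a few in mitochondrial DNA. Several subunits of complex IV come in pairs, with a form found in most tissues and a partner restricted to heart and skeletal muscle, to testis, or to cells short of oxygen.

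Nearly all members stood above a raw level of 100, the study's own cutoff for low signal, which is 6.64 on the log2 scale. The mean of the 3 arrays was tested against that level for every probe set with limma, one-sided for above and for below, at a threshold of 0.05 after Benjamini-Hochberg adjustment across all 35557 probe sets. "Above" and "below" refer to this test throughout. Of the 118 members, 111 were above, 3 below and 4 neither. Over all probe sets 35.5% were above, 41.7% below and 22.8% neither, and over probe sets with a single symbol 41.8% were above and 41.0% below. By gene, 85 of 91 had a probe set above the level, 3 had all probe sets below and 3 were neither. The 3 below were Cox7b2, Cox8b and Cox8c, and the 4 on neither side were Cox6b2, Cox7a1, Ndufa4l2 and the third of 3 probe sets for Cycs. Apart from that Cycs probe set, every member not above the level was a tissue-restricted or induced partner of a complex IV subunit. In every array 112 members reached 100, against 42.0% of all probe sets. With 1 spread shared by every probe set (the pooled spread below), 110 members were above and 3 below, against 34.0% and 38.7% of all probe sets.

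**Figure D1:**
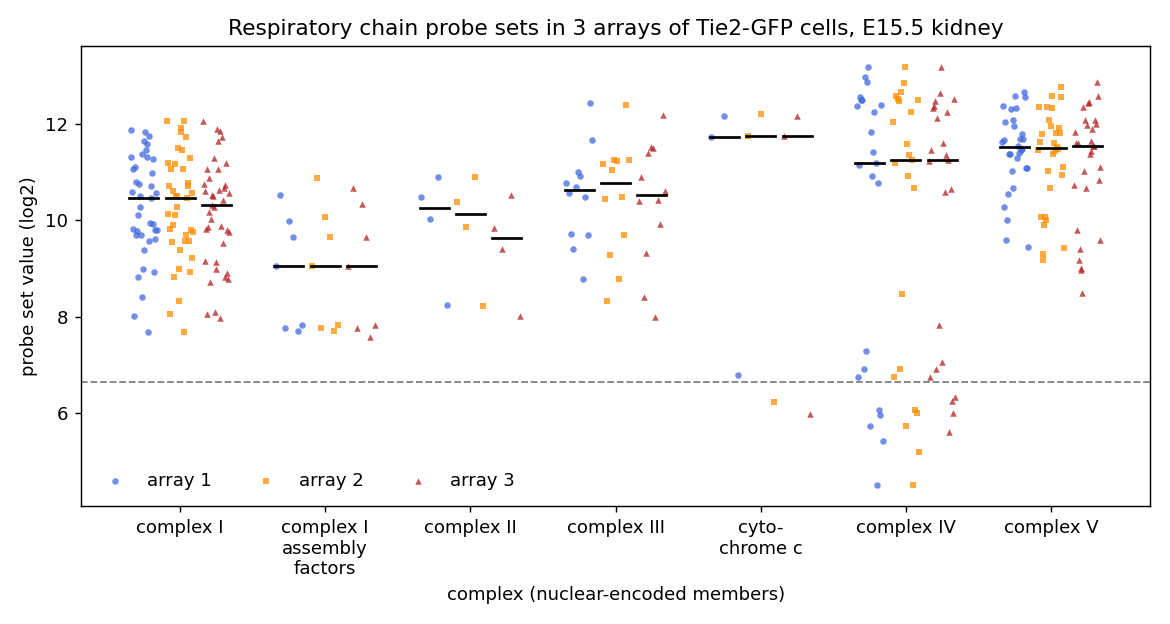
Log2 value of each of the 118 respiratory chain probe sets in array 1 (circles), array 2 (squares) and array 3 (triangles), grouped by complex, with black bars at the median of each array and a dashed line at the level of 100 (6.64 log2). All probe sets of complexes I, II, III and V lie above the line in every array, and the points near or under it belong to complex IV and to 1 probe set of Cycs.

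The array medians over all probe sets were close, at 6.50, 6.51 and 6.55 log2, but array 3 stood apart. Its SD across probe sets was 1.84 against 2.08 and 2.06, and the Pearson correlation across all probe sets was 0.976 between arrays 1 and 2, 0.923 between 1 and 3 and 0.927 between 2 and 3. Over the members these correlations were 0.985, 0.948 and 0.976, and probe sets of an array are not independent. Olfactory and vomeronasal receptor probe sets, which serve as background, had medians of 4.67, 4.71 and 5.08 log2, and 1.74% of the 1210 were above the level. Equal values in at least 2 arrays were found for 44.9% of members and 55.9% of all probe sets, so some members have an SD of 0.00. Values equal in all 3 arrays were found for 11.9% of members and 19.7% of all probe sets. Such a tie is not read here as a stable level. Without array 3, 102 members were above and 4 below, without array 1, 104 and 1, and without array 2, 98 and 1. Of 10 endothelial markers 9 were above the level, among them Tek at 11.12, 10.97 and 10.13 log2. Esam was on neither side at 8.40, 8.26 and 6.77 log2. In bulk samples, fewer cells of a type and less RNA per cell cannot be told apart.

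The promoters of these genes are known targets of the factors NRF1, of ETS proteins such as GABP, and of CREB at cAMP response elements (CRE). RefSeq promoter windows of GRCm38.p6 were available for 74 of the 91 genes, as 79 windows, and the 250 bases before each start were searched on both strands for fixed letters. The letters were GCATGCGC for NRF1, CCGGAAG for ETS, TGACGTCA for CRE, AAGATGGC for YY1, TATAAA, and CCAAT. Windows are shown first for 3 genes that the results below return to: Cycs, whose probe sets did not share a call, Atp5g2, the member with the largest spread between arrays, and Cox6a1, the ubiquitous form of a complex IV subunit. All are written 5′ to 3′ along the gene, and capitals mark matches of the letters on either strand. Cycs lies on the minus strand at chr6:50566570-50566819, Atp5g2 on the minus strand at chr15:102671048-102671297, and Cox6a1 on the minus strand at chr5:115348959-115349208.
Cycs: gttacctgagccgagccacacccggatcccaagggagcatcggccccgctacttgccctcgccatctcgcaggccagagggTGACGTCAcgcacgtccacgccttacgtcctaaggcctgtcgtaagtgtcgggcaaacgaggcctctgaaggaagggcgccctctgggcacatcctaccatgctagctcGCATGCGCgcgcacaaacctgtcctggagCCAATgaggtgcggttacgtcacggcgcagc
Atp5g2: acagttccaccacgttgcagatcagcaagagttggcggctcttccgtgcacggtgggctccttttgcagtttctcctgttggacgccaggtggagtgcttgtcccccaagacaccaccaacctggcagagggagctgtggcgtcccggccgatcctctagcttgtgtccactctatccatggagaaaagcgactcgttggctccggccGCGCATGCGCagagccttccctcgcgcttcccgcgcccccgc
Cox6a1: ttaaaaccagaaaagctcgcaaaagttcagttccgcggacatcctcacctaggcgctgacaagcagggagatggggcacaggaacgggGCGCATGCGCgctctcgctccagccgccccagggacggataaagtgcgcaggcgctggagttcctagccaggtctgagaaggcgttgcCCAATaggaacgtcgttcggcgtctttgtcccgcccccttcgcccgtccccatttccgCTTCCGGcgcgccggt

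The Cycs window held 1 CRE, 1 NRF1 and 1 CCAAT match. In the Atp5g2 and Cox6a1 windows the NRF1 letters matched on both strands at positions that overlap, which gives 1 longer run in capitals, and Cox6a1 also held a CCAAT and an ETS match. NRF1 letters were found in 10 of the 79 member windows (12.7%), against 2.26% of all 32851 windows. These belonged to Atp5g2, Atp5k, Atp5l, Cox6a1, Cycs, Ndufa6, Ndufa8, Ndufa11, Ndufaf4 and Sdhb. ETS letters were in 13 (16.5%) against 6.91%, and CRE letters in 5 (6.33%) against 1.55%. The YY1 letters were in 1 member window (1.27%) against 1.56%, TATAAA in 8 (10.1%) against 12.4%, and CCAAT in 34 (43.0%) against 33.8%. At least 1 of the NRF1, ETS and CRE letters was in 30.4% of member windows and 10.2% of all windows. The member windows were richer in CpG, with a median of 15 CpG against 6 and a median GC content of 57.2% against 52.4%, and the CpG content bears on letters that hold CG. No member window held overlapping matches of different motifs. A match describes these letters only, and binding was not measured.

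Windows of isoform partners are shown next, since the calls within complex IV followed them: Cox7a2 with its muscle partner Cox7a1, and Cox8a with its muscle partner Cox8b. Cox7a2 lies on the minus strand at chr9:79759854-79760103, Cox7a1 on the plus strand at chr7:30183921-30184170, Cox8a on the minus strand at chr19:7217617-7217866 and Cox8b on the minus strand at chr7:140900447-140900696.
Cox7a2: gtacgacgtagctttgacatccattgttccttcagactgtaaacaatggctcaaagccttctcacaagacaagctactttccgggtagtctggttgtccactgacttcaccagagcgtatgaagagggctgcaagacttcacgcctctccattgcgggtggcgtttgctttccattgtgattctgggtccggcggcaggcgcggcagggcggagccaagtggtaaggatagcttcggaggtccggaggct
Cox7a1: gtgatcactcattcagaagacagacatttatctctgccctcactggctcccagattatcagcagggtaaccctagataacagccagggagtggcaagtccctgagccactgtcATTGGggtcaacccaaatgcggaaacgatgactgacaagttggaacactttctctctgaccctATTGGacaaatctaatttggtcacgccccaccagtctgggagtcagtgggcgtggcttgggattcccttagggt
Cox8a: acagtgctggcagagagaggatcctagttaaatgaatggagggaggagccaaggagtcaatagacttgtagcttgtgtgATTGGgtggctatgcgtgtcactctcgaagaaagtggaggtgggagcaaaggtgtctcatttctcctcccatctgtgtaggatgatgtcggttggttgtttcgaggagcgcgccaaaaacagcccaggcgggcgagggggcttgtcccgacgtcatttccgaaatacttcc
Cox8b: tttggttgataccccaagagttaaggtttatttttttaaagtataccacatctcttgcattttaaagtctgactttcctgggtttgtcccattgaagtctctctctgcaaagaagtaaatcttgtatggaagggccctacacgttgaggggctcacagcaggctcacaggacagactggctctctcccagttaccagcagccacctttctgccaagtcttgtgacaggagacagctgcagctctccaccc

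None of these windows held the NRF1, ETS or CRE letters. Cox7a1 held 2 CCAAT matches and Cox8a 1, all on the opposite strand and therefore read as ATTGG. Cox7a2 held 14 CpG and Cox7a1 4, and Cox8a held 11 and Cox8b 1. Over the 4 windows found for tissue-restricted or induced partners (Cox6b2, Cox7a1, Cox7b2 and Cox8b), none held NRF1, ETS or CRE letters, against 24 of the 79 member windows in all, and a count over 4 windows is too small to compare.

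Complex I, the NADH dehydrogenase, was measured by 39 probe sets for 34 genes, and all were above the level. Probe set means ran from 7.78 to 12.00 log2, with a median of 10.43 log2. Probe sets differ in how well they bind, so the order of values between probe sets is not read as an order of expression here. The measured core subunits, which form the arm that takes electrons from NADH, were all above the level, 7 probe sets for 6 genes with a median of 9.79 log2. Ndufv1, which binds NADH and the flavin, read 9.61, 9.22 and 8.78 log2 in arrays 1, 2 and 3. Its partner Ndufv2 read 10.57 log2 in each array. Ndufs1, the largest of the iron-sulfur subunits, read 9.94, 9.69 and 9.52 log2. Ndufv1 and Ndufs1 were lowest in array 3, while Ndufv2 was tied across the arrays.

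Ndufs3, at the base of the peripheral arm, read 10.47, 10.47 and 10.42 log2 in one probe set and 10.70, 10.70 and 10.66 in the other. Ndufs7 and Ndufs8, which carry the last clusters before coenzyme Q, read 8.92, 8.92 and 8.91 log2 and 9.79 in each array. These 3 genes held nearly the same value in all arrays. The accessory subunits, 32 probe sets for 28 genes, had a median of 10.47 log2. Ndufa1, a small membrane subunit, read 11.87, 12.06 and 12.07 log2. Ndufc1 read 7.68, 7.68 and 7.97 log2 in one probe set and 9.58, 9.58 and 9.87 in the other.

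Ndufab1, the mitochondrial acyl carrier protein, read 10.28, 10.50 and 10.52 log2 in one probe set and 10.51 in each array in the other. Ndufb11, an X-linked membrane subunit, had means of 11.40 and 8.28 log2 in its 2 probe sets, 3.12 log2 apart, and both were above the level. Ndufa11, which links complex I to complex III in supercomplexes, was lowest in array 3 in both probe sets. It read 10.58, 10.12 and 9.16 log2 in one and 11.06, 10.70 and 10.60 in the other. Ndufs5 read 9.92, 9.58 and 8.81 log2, again lowest in array 3. A probe set outside the members, annotated to both Ndufs5 and the pseudogene Ndufs5-ps, read 10.28, 10.50 and 10.50 log2, lowest in array 1. The 7 assembly factors of complex I that the names cover were all above the level, with means from 7.65 (Ndufaf6) to 10.69 log2 (Ndufaf2), and 4 of them had the same value in all 3 arrays.

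Complex II, succinate dehydrogenase, which also works in the citrate cycle, was measured by 1 probe set for each of its 4 genes, all above the level. The flavoprotein Sdha read 10.47, 10.38 and 9.84 log2. The iron-sulfur subunit Sdhb read 10.03, 9.86 and 9.41 log2. The membrane anchors Sdhc and Sdhd read 10.90, 10.90 and 10.52 log2 and 8.23, 8.22 and 8.01 log2. All 4 were lowest in array 3, where the median difference from the mean of arrays 1 and 2 was -0.46 log2. Array 3 was lowest for 46.6% of all probe sets above the level, with a median difference of -0.04 log2. For all probe sets with a mean of at least 9 log2 these were 62.4% and -0.22, with quartiles of -0.67 and 0.00. With quantile normalization between the arrays 3 of the 4 were still lowest in array 3. The median difference was then -0.14 log2 and the highest 0.12. With median scaling all 4 were lowest there.

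Complex III, which passes electrons from coenzyme Q to cytochrome c, was measured by 12 probe sets for 9 genes, all above the level, with means from 8.52 to 12.34 log2. Cyc1, its heme subunit, read 10.76, 11.16 and 10.39 log2. Uqcrfs1, the Rieske iron-sulfur protein, read 9.70, 9.70 and 9.92 log2. The core proteins Uqcrc1 and Uqcrc2 read 8.78, 8.78 and 8.00 log2 and 10.48, 10.48 and 10.43 log2. Uqcrh, the hinge protein, read 12.43, 12.39 and 12.19 log2. These subunits did not share a direction between arrays.

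Among the small subunits, Uqcrb was highest in array 3. Its 3 probe sets read 10.69, 11.05 and 11.40 log2, 11.01, 11.25 and 11.52, and 10.93, 11.22 and 11.49. Each was lowest in array 1 and highest in array 3, and array 3 was also highest with quantile normalization and with median scaling. Uqcrq ran the other way at 11.67, 11.25 and 10.61 log2. Uqcr11 read 9.71, 8.32 and 8.40 log2 in a probe set with an SD of 0.78, while its other probe set read 9.40, 9.28 and 9.31, so array 1 stood out in the first only.

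Cycs, the cytochrome c of somatic cells, carries electrons from complex III to complex IV. It read 11.73, 11.76 and 11.76 log2 and 12.15, 12.20 and 12.15 log2 in 2 probe sets above the level. The third probe set read 6.80, 6.23 and 5.99 log2, for a mean of 6.34 ± 0.42 (SD, n = 3), and was neither above nor below (adjusted p = 0.281 for below). Cyct, the testis cytochrome c, was below the level at 5.89, 5.59 and 5.89 log2. The 2 high probe sets of Cycs differed little between arrays, and the low one was highest in array 1.

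Complex IV, cytochrome c oxidase, held all the members below the level and 3 of the 4 on neither side. Of its 23 probe sets for 19 genes, 17 were above, 3 below and 3 neither. Its subunits without the tissue-restricted or induced partners, 15 probe sets for 11 genes, were all above, with means from 10.70 to 13.18 log2. Cox5a read 11.14, 11.19 and 11.45 log2. Cox5b, the zinc-binding subunit, read 12.55, 12.58 and 12.34 log2 in one probe set and 12.50, 12.52 and 12.38 in the other. Cox6c read 13.18 log2 in each array in one probe set and 12.87, 12.85 and 12.64 in the other. The 8 partners had a median of 6.15 log2, with 2 above, 3 below and 3 neither.

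**Figure D2:**
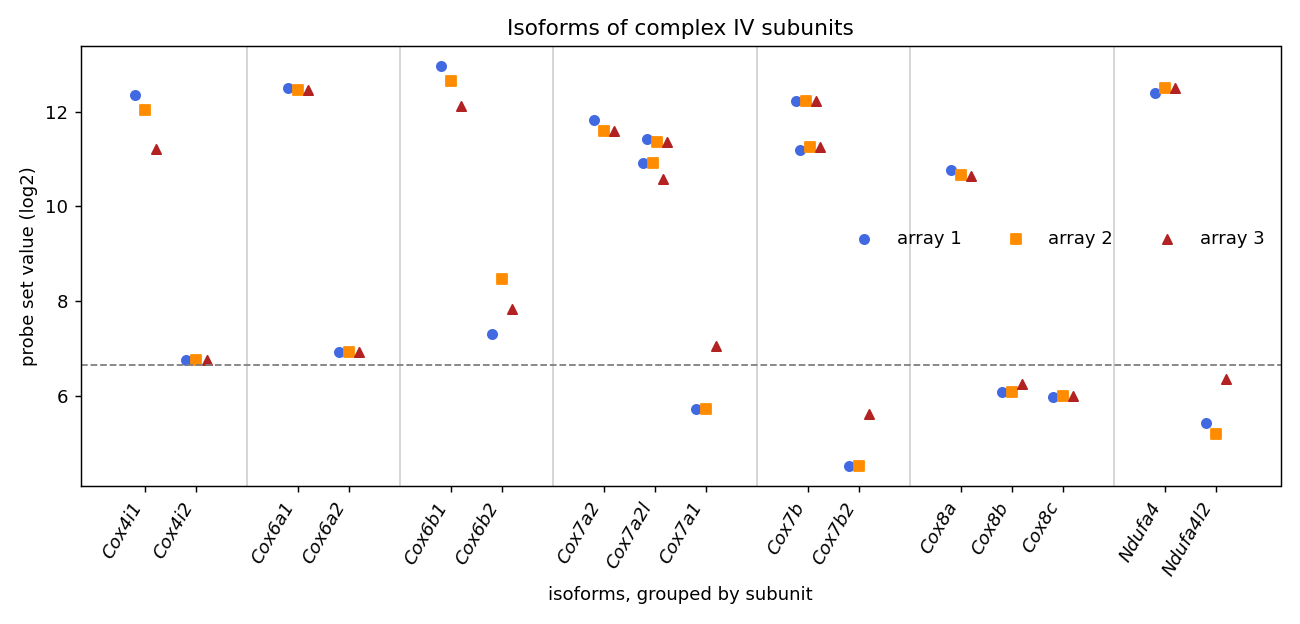
Log2 value of each complex IV isoform probe set in array 1 (circles), array 2 (squares) and array 3 (triangles), grouped by subunit with grey lines between subunits and a dashed line at the level of 100 (6.64 log2). The ubiquitous forms lie between 10.59 and 12.97 log2, and the 8 partners between 4.50 and 8.47 log2.

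Cox4i1, the regulatory subunit of most tissues, read 12.37, 12.04 and 11.22 log2, a mean of 11.88 ± 0.59 (SD, n = 3) above the level (adjusted p = 0.00355). Cox4i2, its lung and hypoxia form, read 6.74 log2 in each array, 0.10 above the level. With an SD of 0.00 Cox4i2 passed as above (adjusted p = 0.00151), and with the pooled spread it did not (adjusted p = 0.813). Cox4i1 was lowest in array 3, and its call was lost without array 2.

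Cox6a1 read 12.50, 12.46 and 12.46 log2. Its heart and skeletal muscle partner Cox6a2 read 6.92 log2 in each array, passed as above (adjusted p = 0.000218), and did not pass with the pooled spread (adjusted p = 0.407). Cox6b1 read 12.97, 12.65 and 12.13 log2. Its testis partner Cox6b2 read 7.29, 8.47 and 7.83 log2, a mean of 7.87 ± 0.59 (SD, n = 3). Cox6b2 exceeded 100 in all 3 arrays but was neither above nor below (adjusted p = 0.0593 for above, and 3.54e-05 with the pooled spread).

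Cox7a2, the liver-type form, read 11.84, 11.59 and 11.60 log2. Cox7a2l, a related protein that joins complexes III and IV into supercomplexes, read 10.92, 10.92 and 10.59 log2 and 11.42, 11.36 and 11.36 log2 in its probe sets. Cox7a1, the heart and muscle form, read 5.72, 5.72 and 7.05 log2, a mean of 6.17 ± 0.77 (SD, n = 3), and was neither (adjusted p = 0.342 for below). Only array 3 was over the level for Cox7a1. Without array 3 it was below, but the arrays left had equal values and so no spread.

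Cox7b read 12.24 log2 in each array in one probe set and 11.20, 11.25 and 11.25 in the other. Its testis partner Cox7b2 was below at 4.50, 4.50 and 5.61 log2, a mean of 4.87 ± 0.64 (SD, n = 3, adjusted p = 0.0296), and the call was lost without array 1 or without array 2. Cox8a read 10.78, 10.68 and 10.64 log2. Its muscle and brown fat partner Cox8b was below at 6.07, 6.07 and 6.24 log2 (adjusted p = 0.00866, and 0.0844 with the pooled spread). The Cox8b call was also lost without array 1 or without array 2. The testis partner of Cox8a, Cox8c, was below at 5.97, 6.00 and 6.00 log2 (adjusted p = 0.000244, and 0.0279 with the pooled spread).

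Ndufa4, first counted with complex I and now with complex IV, read 12.40, 12.50 and 12.51 log2. Ndufa4l2, its partner induced by hypoxia, read 5.42, 5.18 and 6.34 log2, a mean of 5.65 ± 0.61 (SD, n = 3), under 100 in every array. It was neither above nor below (adjusted p = 0.0811 for below), and below with the pooled spread (adjusted p = 0.000752). For all 7 subunits with partners, the ubiquitous form was above the level in every probe set, while the partners above it, Cox4i2 and Cox6a2, did not pass with the pooled spread. Cox6b2, on neither side in the main test, was above with the pooled spread, quantile normalization and median scaling. It stayed on neither side with each array left out in turn.

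Markers of the tissues that use these partners were read beside them. Of 10 heart and skeletal muscle markers 5 were above, 4 below and 1 neither, shares close to those of all single-symbol probe sets, and those above lay between 6.87 (Actc1) and 7.41 log2 (Tnni3). Ckmt2, the creatine kinase of muscle mitochondria, was below at 4.81, 4.81 and 5.04 log2. None of 10 testis germ cell markers was above, 8 were below, and Prm1 and Prm2 were on neither side. All 6 brown fat markers were below, among them Ucp1 at 4.62, 4.62 and 5.30 log2.

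Complex V, the ATP synthase, was measured by 30 probe sets for 17 genes, all above the level, with means from 9.31 to 12.77 log2. The catalytic beta subunit Atp5b read 12.37, 12.35 and 11.83 log2. The alpha subunit Atp5a1 read 11.62, 11.46 and 10.74 log2. The gamma subunit Atp5c1, the rotating shaft, read 11.67, 11.61 and 11.60 log2. Alpha and beta were lowest in array 3, and gamma held nearly the same value.

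Atp5d and Atp5e, the delta and epsilon subunits at the foot of the shaft, read 10.28, 10.06 and 9.79 log2 and 12.05, 11.79 and 11.59 log2. Atp5o, of the outer stalk, read 11.09, 10.95 and 10.84 log2. Atp5pb, also of that stalk, read 11.09, 11.11 and 11.11 log2 in one probe set and 9.45, 9.43 and 9.59 in the other. Atp5h, of the same stalk, had 3 probe sets with means from 10.67 to 12.08 log2 with SDs of 0.00 to 0.01 log2. Among the small membrane subunits, the 6 probe sets of Atp5l had means from 11.35 to 11.79 log2, and the 3 of Atp5md from 11.83 to 12.77 log2.

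The c subunit of the rotor is made from 3 genes whose mature proteins are the same, and their probe sets behaved differently between arrays. Atp5g3 read 12.31, 12.35 and 12.35 log2. Atp5g1 read 9.58, 9.18 and 9.18 log2 and 10.00, 9.29 and 9.39 log2 in its probe sets, highest in array 1. Atp5g2 read 10.54, 9.90 and 9.01 log2, 11.37, 10.07 and 8.96 log2, and 11.38, 10.00 and 8.49 log2. All 3 probe sets of Atp5g2 were highest in array 1 and lowest in array 3, with differences between array 3 and the mean of arrays 1 and 2 from -2.20 to -1.21 log2. With quantile normalization these differences ran from -1.83 to -0.82 log2.

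The 3 Atp5g2 probe sets were above the level with adjusted p-values of 0.0157, 0.0311 and 0.0487, and each lost the call when any array was left out. Their SDs were 0.77, 1.21 and 1.44 log2 (n = 3). Of the 4210 probe sets with a mean of at least 9 log2, 0.974% had a larger SD than the most variable of them, 2.30% than the next and 9.64% than the least. The Atp5g2 promoter, printed above, held the overlapping NRF1 matches, and those of Atp5g1 and Atp5g3 held none of the NRF1, ETS or CRE letters. The windows of Cox6a1, Atp5k, Ndufaf4 and Ndufa11 also held 2 NRF1 matches. Their SDs between arrays were 0.02, 0.07 and 0.18 log2, and 0.72 and 0.24 log2 for the 2 probe sets of Ndufa11. A link between these letters and the spread was not tested.

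**Figure D3:**
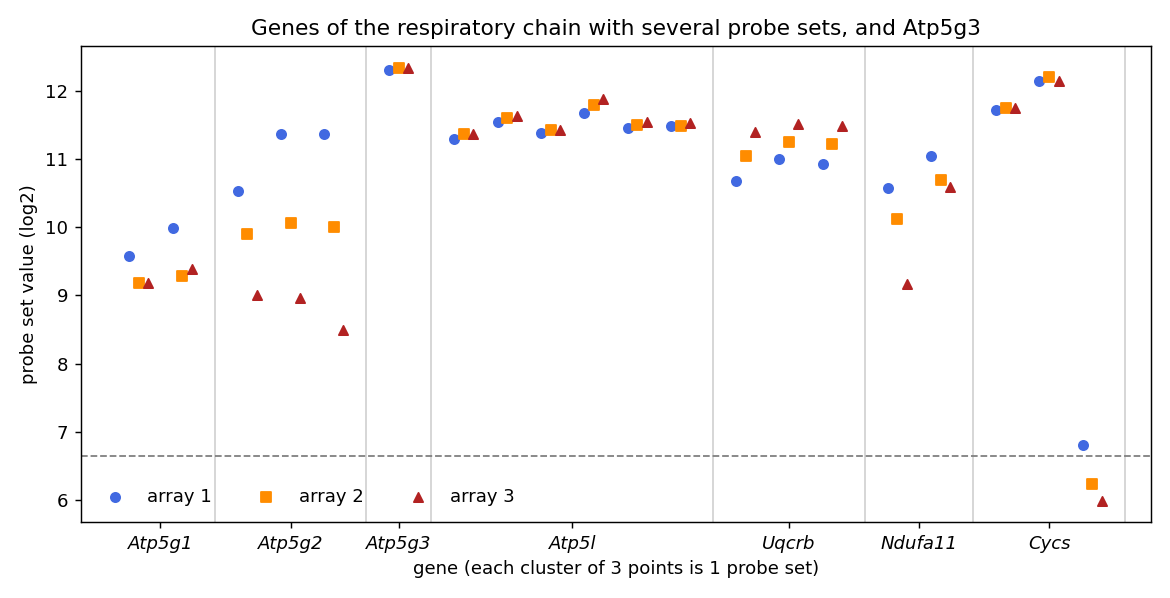
Log2 values in array 1 (circles), array 2 (squares) and array 3 (triangles) for genes with several probe sets and for Atp5g3, where each cluster of 3 points is a probe set and the dashed line is the level of 100 (6.64 log2). The 3 probe sets of Atp5g2 are highest in array 1 and lowest in array 3, those of Uqcrb the reverse, and the third probe set of Cycs lies at the line.

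Array 3 was compared with arrays 1 and 2 across the members, as a description with no test. Over all 118 members the median of array 3 minus the mean of arrays 1 and 2 was -0.02 log2 as deposited, -0.06 with median scaling and 0.21 with quantile normalization, so its sign depended on the scaling. Over the 97 members with a mean of at least 9 log2 it was -0.02 log2 as deposited, against -0.22 for all 4210 such probe sets. With quantile normalization these were 0.21 and 0.04 log2, and with median scaling -0.06 and -0.26. Array 3 was the lowest of the 3 for 43.3% of these members and 62.4% of such probe sets as deposited, for 68.0% and 76.1% with median scaling, and for 23.7% and 40.4% with quantile normalization. As deposited, an SD over 0.5 log2 was found in 7.22% of these members and 23.6% of such probe sets.

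The members did not move as a block. The 26 probe sets of listed core subunits had a median difference of -0.20 log2 and were lowest in array 3 in 20 cases (76.9%). Over all 4210 probe sets with a mean of at least 9 log2 these were -0.22 log2 and 62.4%. The list held the core subunits of complexes I, II, III and V given with values above. Cox5a and Cox5b stood for complex IV, whose subunits encoded in mitochondrial DNA had no single-symbol probe set, and Cycs was left out. The 84 other members apart from the tissue-restricted or induced partners had a median of 0.00 log2 and were lowest in array 3 in 29 cases (34.5%). With quantile normalization the medians of the core and the other members were 0.07 and 0.23 log2, and array 3 was lowest in 34.6% and 19.0%. With median scaling they were -0.24 and -0.04 log2, and array 3 was lowest in 88.5% and 64.3%. By complex the medians as deposited were -0.02 for complex I, -0.46 for complex II, -0.04 for complex III, 0.00 for complex IV and 0.00 for complex V. As deposited, array 3 was lower by at least 1 log2 for 4 members, the 3 probe sets of Atp5g2 and 1 of Ndufa11. It was higher by at least 1 log2 for 3, Cox7a1, Cox7b2 and Ndufa4l2, which all had low values in arrays 1 and 2. Over all 35557 probe sets, 2659 were lower and 2340 higher by as much.

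**Figure D4:**
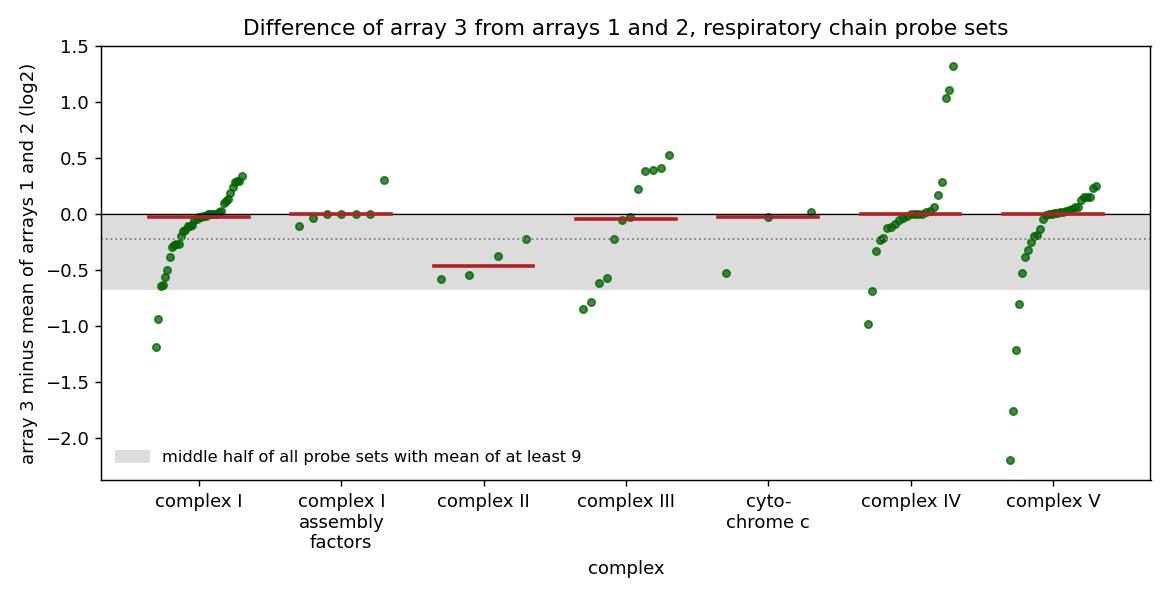
Value in array 3 minus the mean of arrays 1 and 2, in log2 units, for each of the 118 members grouped by complex and sorted within it, with red bars at the medians. The grey band and dotted line give the middle range between quartiles (-0.67 to 0.00) and the median (-0.22) of all 4210 probe sets with a mean of at least 9 log2. Complex II lies under zero as a whole, and the 3 Atp5g2 probe sets are the lowest points of complex V.

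Marker lists of the sorted cells and of another cell type differed between the same arrays. The 10 endothelial markers were all lowest in array 3, with medians of 10.55, 10.20 and 9.11 log2 in arrays 1, 2 and 3 and single values from 6.77 to 12.15 log2. The 10 macrophage markers had medians of 6.48, 7.83 and 8.24 log2, with ranges of 5.62 to 7.48, 6.74 to 9.08 and 6.42 to 10.06 log2. Array 3 was the highest of the 3 for 7 of them. Aif1 read 7.24, 8.34 and 10.06 log2 and had the largest difference of array 3 from the mean of arrays 1 and 2, 2.27 log2. Mrc1, at 6.51, 9.08 and 9.97 log2, had the largest SD, 1.79 log2. C1qa, Cd68 and Adgre1 were highest in array 2. Only Cx3cr1 was above the level, at 7.48, 7.97 and 8.36 log2, and the other 9 were on neither side. The median difference of array 3 kept its sign in both lists under quantile normalization and median scaling. Pericyte and mural markers, 10 in all, had medians of 6.35, 6.35 and 6.23 log2, with 7 below. Acta2 was above at 7.21 log2 in each array, and Kcnj8 and Notch3 were on neither side. Of 9 measured erythroid markers 5 were above, 3 below and 1 neither, against 41.8% above and 41.0% below over single-symbol probe sets. Their median was 6.82 log2 in each array, while Hbb-y read 8.57, 9.55 and 9.57 log2. Of 8 proximal tubule markers 1 was above (Aqp1, at 7.69, 7.57 and 7.57 log2), 4 below and 3 neither. The part of these shifts in the differences between arrays of the members was not tested.

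**Figure D5:**
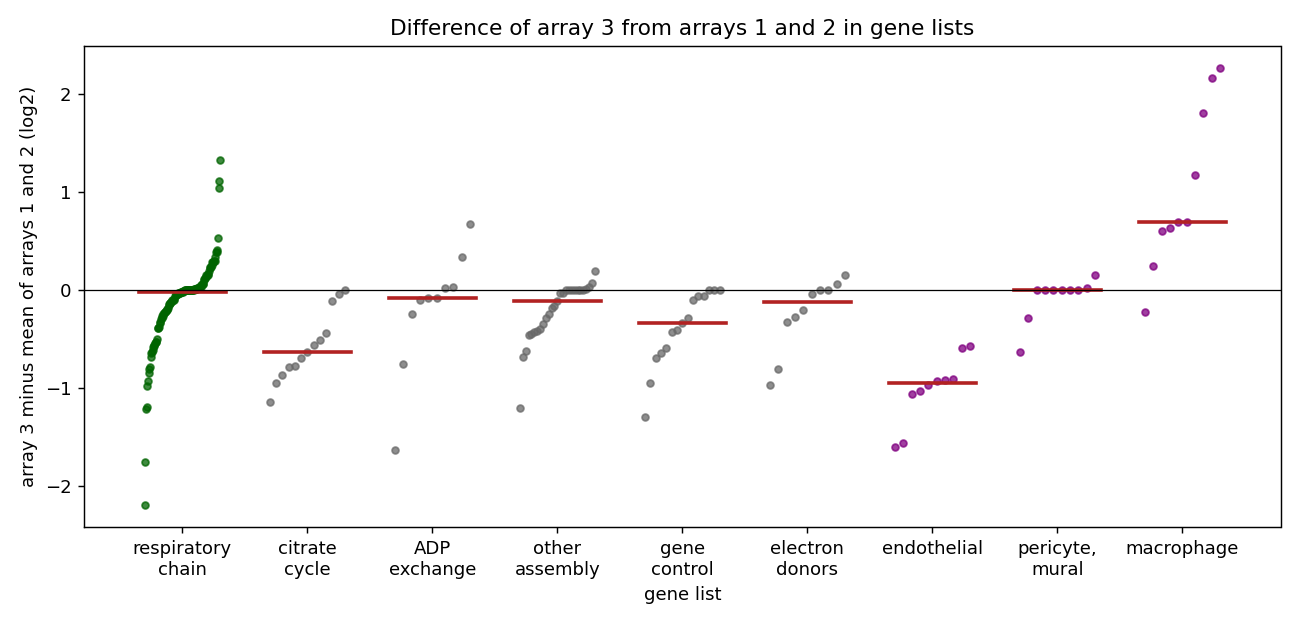
Value in array 3 minus the mean of arrays 1 and 2, in log2 units, for the 118 respiratory chain probe sets and for the genes of 8 other lists, each point a probe set or gene and each red bar the median of its list. The bar of the respiratory chain lies at -0.02, that of the citrate cycle at -0.63, that of the endothelial markers at -0.95 and that of the macrophage markers at 0.70.

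Proteins that build the complexes, but lie outside the name pattern, were mostly above the level. Of 30 listed assembly factors 27 were measured, with 22 above, 2 below and 3 neither. Cox17, the copper carrier of complex IV, read 11.71, 12.00 and 11.43 log2. The complex III factors Lyrm7 and Uqcc1 were below, at 4.57 log2 in each array and at 5.97, 5.64 and 5.39 log2. Ecsit, Cox11 and Atpaf2 were on neither side, at means of 7.19, 6.91 and 6.76 log2. The 13 subunits encoded in mitochondrial DNA had no single-symbol probe set and were not analysed here.

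The factors that control genes of mitochondria were mixed, with 10 of 15 above, 1 below and 4 neither. Ppargc1a, the coactivator that induces mitochondrial genes in muscle and brown fat, was below at 4.40 log2 in each array. Its relative Ppargc1b was on neither side at a mean of 6.79 log2, and Pprc1 was above at 8.12 log2. Nrf1 was above at 7.45 log2 in each array, and Gabpa, the ETS subunit of GABP, at 10.23, 10.23 and 9.28 log2. Tfam, which packs and transcribes mitochondrial DNA, was above at 8.47, 8.47 and 8.41 log2. The transcription factors Tfb1m and Tfb2m and the helicase Peo1 were on neither side, at means of 6.97, 7.90 and 6.78 log2. Tfb2m was over the level in each array, at 8.33, 8.33 and 7.03 log2.

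The citrate cycle, which supplies NADH and succinate to the chain, had 12 of 13 measured genes above and Ogdh on neither side at 8.59, 7.77 and 7.04 log2. Its genes had a median difference of -0.63 log2 between array 3 and the mean of arrays 1 and 2, and citrate synthase Cs read 10.66, 10.05 and 9.41 log2. Of 10 measured genes for ADP exchange, uncoupling and the ATP synthase inhibitor, 7 were above and 3 below. The ADP/ATP carriers Slc25a4 and Slc25a5 had means of 11.90 and 11.11 log2, and the inhibitor Atpif1 read 12.84, 12.87 and 12.89 log2. The 3 below were the testis carrier Slc25a31 at a mean of 4.05 log2 and the uncoupling proteins Ucp1 and Ucp3 at 4.85 and 5.65 log2. Of 10 other electron donors and carriers, 8 were above, Cyct was below, and the sulfide oxidoreductase Sqrdl was on neither side at 7.05, 8.19 and 6.65 log2.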

How the data were processed

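Expression was measured on Affymetrix Mouse Gene 1.0 ST arrays, 1 per pool of kidneys, in 3 samples of 1 group. The authors deposited log2 values per probe set. Affymetrix Expression Console is listed in the submitters' processing notes, with no version. The methods describe RMA in GeneSpring, without saying if the deposited table was made that way. Values were used as deposited, and the number of arrays limits their precision. Probe sets were named by the platform annotation, where 21789 had a single symbol, 1621 had several and were not named as single genes, and 12147 were unnamed here. Member symbols were checked through gene identifiers in RefSeq (GRCm38.p6), where all 118 matched. The same release gave the promoter windows, of which the 250 bases before the start were used. No probe coordinates were used.

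The level test used an intercept-only fit with eBayes in limma 3.58.1 (R 4.3.3), one-sided in each direction against a raw level of 100, the study's low-signal cutoff. It was tested on simulated data without tied values, so calls of probe sets with equal values in all arrays were not checked there. A gene counted as above when at least 1 probe set passed, and as below when each of them did. Values of genes in the other lists are means over the probe sets of each gene. Tables were made with Python 3.11.15, pandas 2.3.3 and numpy 2.4.6. Alternatives were levels of 50 and 200, a pooled spread, an intensity trend, quantile normalization, median scaling, single-symbol probe sets only, the study's filter, updated symbols, subunits only, and leaving out each array.

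Members named with values were those of isoform pairs, core subunits, members not above the level, the extremes of each complex, the 5 with the largest spread, and genes with several probe sets. Ndufs5 and Uqcrq fall outside these classes and were added with their values known. Atp5k and Ndufaf4 were given an SD for their NRF1 matches. From the other pathway lists, genes whose call differed from most of their list were named. From the cell type lists not all such genes were named. The others named (such as Cox17, Nrf1, Gabpa, Tfam, Cs and Atpif1) were chosen after their values were seen. The members and lists were chosen with earlier results of these data known.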

Additional observations from a re-analysis of the deposited data

How the results depend on the processing

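Of the respiratory chain probe sets, 114 were above a level of 50 and 100 above a level of 200, and the count was 111 with quantile normalization, 110 with the pooled spread and 98 to 104 with an array left out, against 111. The count below, 3, became 0 at a level of 50, 8 at a level of 200, and 1 to 4 with an array left out. Over all probe sets, 21712 were above and 5305 below a level of 50, and 5510 above and 22955 below a level of 200. Testing single-symbol probe sets only left fewer to count, 8906 below. With an array left out, 7712 to 11688 were above and 8738 to 15179 below. For the isoform pairs, 0 were below a level of 50, 7 below a level of 200, 1 to 4 with an array left out, and 15 to 17 were then above. For the other pathway lists, 37 genes were above and 19 below a level of 200, 3 below a level of 50, and 37 to 57 above and 4 below with an array left out. For the marker lists, 53 genes were above and 9 below a level of 50, 5 above and 51 below a level of 200, and 10 to 21 above with an array left out.

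Seen from a level of 200, Cox4i2 lay at -0.90 log2 and Cox6a2 at -0.72, and seen from a level of 50, Cox7a1 lay at 0.52 log2, Cox8b at 0.48, Cox8c at 0.34, Ndufa4l2 at 0.00295 and the third Cycs probe set at 0.69. With quantile normalization the median of array 3 minus the mean of arrays 1 and 2 was 0.21 log2 over the members and 0.10 over all probe sets above the level, against -0.02 and -0.04 as deposited. The cause was not tested. No paired analysis was possible because the samples form a single group. Signal over background limits calls of probe sets near the level, such as Cox4i2 and Cox6a2.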
